A study of Homo sapiens with 12 samples.

Results

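The AP-1 and BATF transcription factors were followed across 4 groups of U-2932, a cell line from a human diffuse large B cell lymphoma. The members were the 10 autosomal genes with the symbols FOS, FOSB, FOSL1, FOSL2, JUN, JUNB, JUND, BATF, BATF3 and ATF3, and they were taken by symbol, not by their values, from a table of 60675 genes. Each had 1 row in the table, and all 10 were among the 15112 genes that passed the filter on low counts. The groups were Y691F cells with IgM, WT cells with IgM, Y691F cells left untreated and WT cells left untreated, with 3 libraries each. Y691F and WT are the forms of Roquin2 that the cells stably expressed, and Y691F carries phenylalanine where the wild-type protein has tyrosine. IgM is an F(ab')2 antibody fragment that engages the B cell receptor, given at 10 µg/ml for 12 h. All cells grew in RPMI with serum, and every group carried an introduced Roquin2, so none of them measures cells without a construct. The submitters call the 3 libraries of a group independent biological replicates. Whether 1 or several separately made lines stood for a form of Roquin2 was not given in the sources used here, so form and line cannot be told apart, and the p-values measure the spread between these libraries.

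AP-1 is a dimer of basic leucine zipper proteins. Jun proteins pair with each other or with Fos proteins, Fos proteins need a Jun partner to bind DNA, and the composition of the dimer sets how strongly it activates. BATF and BATF3 lack a transactivation domain of their own and pair with Jun proteins, often beside an IRF factor at composite sites, and ATF3 is a stress-induced relative that can repress. In B cells, antigen receptor signals reach these genes through the MAP kinases, and several of their mRNAs are short-lived. Roquin2 is the product of RC3H2 and binds short stem-loops in the 3′ UTR of mRNAs, which it directs to decay.

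The libraries held 16465393 to 21478790 counts, and replicate libraries varied with a biological coefficient of variation of 2.51%. RC3H2 was higher in Y691F cells than in WT cells, by 0.77 on the log2 scale with IgM (SE 0.03, adjusted p = 6.77e-36) and by 0.92 untreated (SE 0.03, adjusted p = 2.26e-41). Whether reads of the construct were counted on it was not given in the sources used here. All 8 B cell markers looked for were among the tested genes, with summed levels of 4576 to 4721 CPM in Y691F with IgM, 4309 to 4354 CPM in WT with IgM, 5638 to 5764 CPM in Y691F untreated and 5690 to 5754 CPM in WT untreated. CPM are counts scaled to a common library total, here adjusted with TMM factors. The 12 T and NK cell markers summed to 28.7 to 30.3, 24.3 to 25.7, 18.4 to 18.5 and 20.9 to 22.5 CPM in the same order of groups, with CD3D, CD2, NKG7 and GNLY at 0 in all 12 libraries. Most of these sums came from TRAC and CD247. In the same order, TRAC had means of 22.8, 19.9, 6.53 and 7.81 CPM, and CD247 of 4.49, 3.83, 10.0 and 12.6 CPM. The 10 myeloid markers summed to at most 1.96 CPM in any library, with FCGR3A, S100A8 and S100A9 at 0. The 11 fibroblast and epithelial markers summed to 20.9 to 27.2 CPM, with PDGFRA, KRT19 and CDH1 at 0. Most of this sum was EPCAM, an epithelial marker of the list, with means of 22.7, 20.9, 20.3 and 21.3 CPM in the same order of groups. In such bulk libraries, fewer cells that express a gene and less RNA per cell cannot be told apart.

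With IgM, per unit length, JUND and JUNB were by far the most abundant of the 10 mRNAs. The authors' RPKM values were used for this order, since they take gene length into account, and each order holds within a group. In Y691F with IgM the order was JUND (200 RPKM), JUNB (109 RPKM), BATF (18.3 RPKM), FOSL1 (7.74 RPKM), FOS (6.97 RPKM), FOSL2 (5.93 RPKM), ATF3 (1.63 RPKM), FOSB (0.911 RPKM), JUN (0.849 RPKM) and BATF3 (0.184 RPKM). The ranges of FOSL1 and FOS overlapped there, as did those of FOSB and JUN. In WT with IgM the order was JUND (187 RPKM), JUNB (135 RPKM), BATF (31.7 RPKM), FOSL1 (8.73 RPKM), FOS (6.91 RPKM), FOSL2 (3.07 RPKM), ATF3 (2.86 RPKM), JUN (1.94 RPKM), FOSB (0.965 RPKM) and BATF3 (0.172 RPKM), and only FOSL2 and ATF3 overlapped as neighbours. Without IgM, the mRNAs of JUND, JUNB and BATF stood far above the others. In Y691F untreated JUND was at 53.6 RPKM, JUNB at 27.6 RPKM and BATF at 19.0 RPKM. The others followed as ATF3 (0.552 RPKM), JUN (0.50 RPKM), FOSL2 (0.305 RPKM), FOSB (0.243 RPKM), FOS (0.242 RPKM), BATF3 (0.123 RPKM) and FOSL1 (0.103 RPKM). Of these neighbours ATF3 and JUN overlapped, as did FOSL2, FOSB and FOS, and BATF3 and FOSL1. In WT untreated JUND was at 39.4 RPKM, BATF at 28.1 RPKM and JUNB at 24.1 RPKM, so BATF stood above JUNB in that group, with no overlap of their ranges. The others followed as ATF3 (0.842 RPKM), JUN (0.371 RPKM), FOSB (0.237 RPKM), FOSL2 (0.117 RPKM), FOS (0.0904 RPKM), FOSL1 (0.0754 RPKM) and BATF3 (0.0739 RPKM), and each of the last 4 overlapped with its neighbour.

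**Figure D1:**
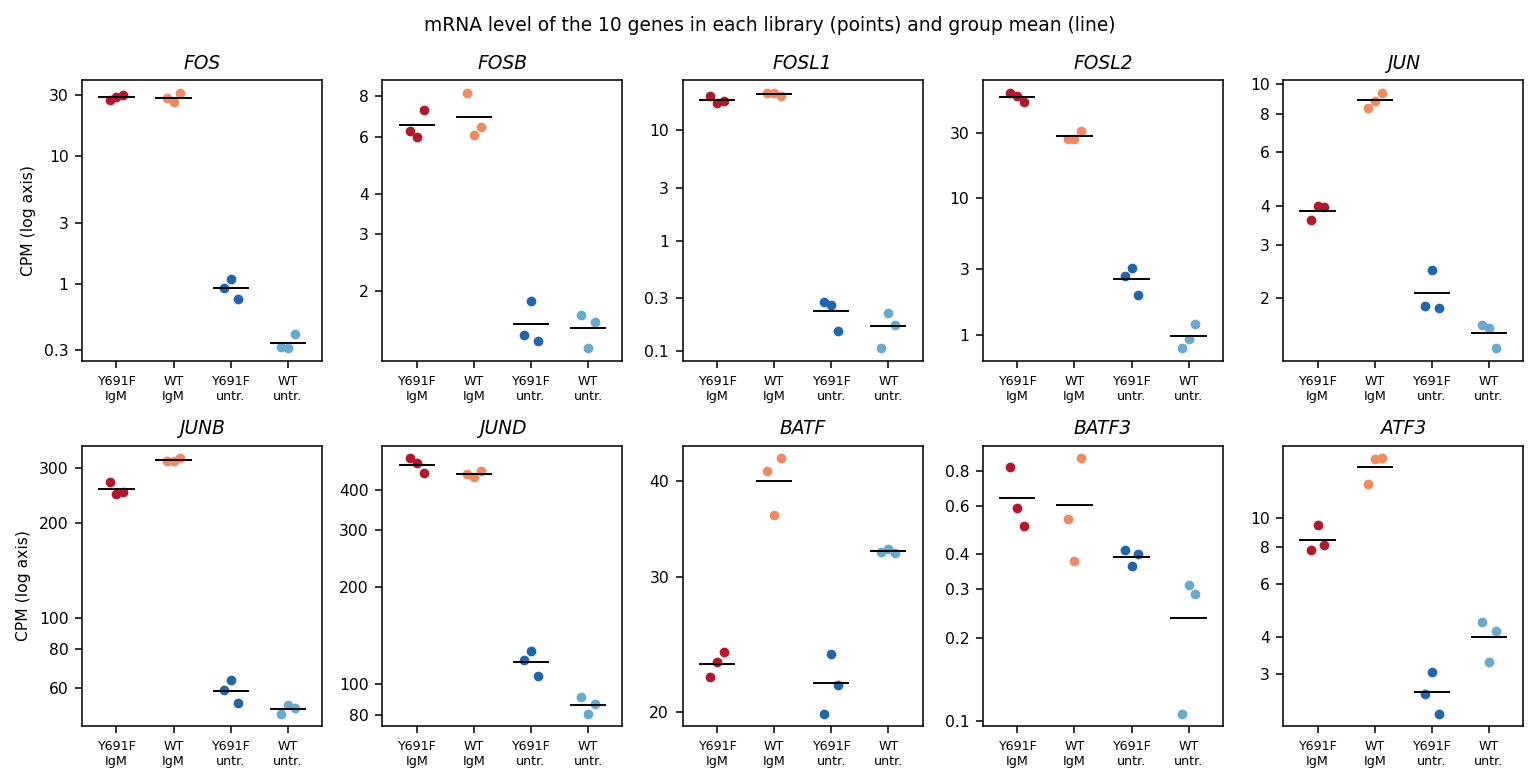
Level of each of the 10 mRNAs in CPM (log axis, a scale of its own for each gene) in the 12 libraries, with points for libraries and a line for the mean of the 3 libraries of a group. FOSL2 in Y691F cells lies above WT cells with and without IgM, BATF and ATF3 lie below, and JUN lies below with IgM.

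Stimulation with IgM raised most of the family in both kinds of cell. In Y691F cells 8 of the 10 genes were higher with IgM than untreated, where 37.1% of all tested genes were higher, 38.7% lower and 75.8% called in either direction. Of the 10 genes 7 were at least 2-fold higher, against 8.07% of all tested genes. In WT cells all 10 were higher, where 38.4% of all tested genes were higher, 38.5% lower and 76.9% called in either direction. Of the 10 genes 9 were at least 2-fold higher, against 8.91% of all tested genes. FOSL1 and BATF3 passed the filter on low counts through IgM libraries alone, so the filter favours a rise in both. Of the 8 other genes, 7 were higher and 6 at least 2-fold higher in Y691F cells, and 8 were higher and 7 at least 2-fold higher in WT cells. The threshold for a call was an adjusted p of 0.05 in the quasi-likelihood test of edgeR, with the Benjamini-Hochberg adjustment over all tested genes. The Fos genes that were nearly silent in untreated cells changed most, and BATF changed least. Scaling by library totals in place of TMM moves the median log2 change of all tested genes to -0.18 for IgM in Y691F, against -0.0107 with TMM, and to -0.13 for IgM in WT, against 0.0016 with TMM, so these responses are relative to the TMM scaling. With library totals, 4246 genes were called higher and 7264 lower with IgM in Y691F cells, against 5600 and 5853 with TMM.

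FOS encodes c-Fos, the immediate-early partner of Jun proteins that gives strongly activating dimers. The gene (ENSG00000170345) lies on chromosome 14 from 75278774 to 75282230 on the plus strand (GRCh38). It had 27.8, 29.2 and 30.3 CPM in Y691F with IgM, 28.5, 26.7 and 31.3 CPM in WT with IgM, 0.919, 1.09 and 0.755 CPM in Y691F untreated and 0.318, 0.311 and 0.401 CPM in WT untreated. The groups with IgM overlapped fully, while every untreated Y691F library was above every untreated WT library. The untreated levels rest on few reads, with 20, 21 and 15 counts in Y691F and 6, 7 and 7 counts in WT. IgM raised FOS by 4.97 on the log2 scale in Y691F cells (SE 0.12, adjusted p = 4.26e-54) and by 6.37 in WT cells (SE 0.15, adjusted p = 1.63e-55). As a ratio of summed counts, scaled for depth, this was 31.6-fold in Y691F (95% exact interval 24.2 to 42.1) and 84.4-fold in WT (54.4 to 139), where the intervals cover counting error only.

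FOSL1 encodes Fra-1, a Fos protein without the strong activation domain of c-Fos. It lies on chromosome 11 from 65892049 to 65900573 on the minus strand (ENSG00000175592). Its levels were 20.4, 17.7 and 18.3 CPM in Y691F with IgM and 21.5, 21.6 and 20.4 CPM in WT with IgM, against 0.276, 0.259 and 0.151 CPM in Y691F untreated and 0.106, 0.222 and 0.172 CPM in WT untreated. The untreated groups overlapped, with 14 counts over the 3 Y691F libraries and 10 over the 3 WT libraries, and the gene passed the filter on low counts through its 6 IgM libraries alone. It had the largest IgM response of the 10 in both kinds of cell, at 6.32 on the log2 scale in Y691F (SE 0.18, adjusted p = 5.45e-50) and 6.91 in WT (SE 0.18, adjusted p = 1.01e-51). By counts these were 82.0-fold (48.6 to 151) in Y691F and 125-fold (67.7 to 261) in WT. Counted from the highest signed log2 change, FOSL1 was at rank 30 in Y691F and rank 33 in WT among the 15112 tested genes.

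FOSL2 encodes Fra-2, the other Fos protein of this kind, and is the member that stood higher in Y691F cells with and without IgM. It lies on chromosome 2 from 28392448 to 28417312 on the plus strand (ENSG00000075426). It had 58.4, 55.9 and 49.8 CPM in Y691F with IgM, 27.2, 27.1 and 30.6 CPM in WT with IgM, 2.67, 3.05 and 1.96 CPM in Y691F untreated and 0.794, 0.934 and 1.20 CPM in WT untreated. In each condition the lowest Y691F library was above the highest WT library. The IgM response was 4.42 on the log2 scale in Y691F (SE 0.09, adjusted p = 2.20e-56) and 4.85 in WT (SE 0.13, adjusted p = 4.24e-49). FLJ31356 and RP11-373D23.2, which overlap the FOSL2 locus, had at most 3 counts in any library.

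FOSB, a further immediate-early Fos gene, lies on chromosome 19 from 45467995 to 45475179 on the plus strand (ENSG00000125740). It had 6.28, 6.0 and 7.28 CPM in Y691F with IgM, 8.19, 6.10 and 6.43 CPM in WT with IgM, 1.47, 1.86 and 1.41 CPM in Y691F untreated and 1.69, 1.33 and 1.60 CPM in WT untreated. Y691F and WT overlapped in each condition, and IgM raised FOSB by 2.04 (SE 0.16, adjusted p = 3.15e-20) in Y691F and by 2.17 (SE 0.16, adjusted p = 1.69e-21) in WT on the log2 scale. The whole gene lies within the span of ERCC1 on the opposite strand, a DNA repair gene with 1206 to 2079 counts per library. The libraries mark strand, but the strand setting of the read counter was not given in the sources used here. ERCC1 was itself higher with IgM, by 0.64 on the log2 scale in Y691F and 0.63 in WT, and its part in the FOSB counts was not tested.

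The sequences before the start sites of these genes are shown because FOS, FOSL2 and FOSB each rose with IgM, FOSB by less than the others, and each holds the letters TGACGT, the core of a CREB/ATF site, close to the start. Each line gives the 250 bases upstream of the RefSeq start (GRCh38.p14), 5′ to 3′ on the gene's strand, with the motif in capitals. The coordinates are chr14:75278578-75278827 for FOS, chr2:28392608-28392857 for FOSL2 and chr19:45467746-45467995 for FOSB, all on the plus strand. A RefSeq start can differ from the start of the gene span given above. The FOSL2 window lies wholly inside its gene span, the FOS window reaches into its span, and the FOSB window ends on the first base of its span.
FOS: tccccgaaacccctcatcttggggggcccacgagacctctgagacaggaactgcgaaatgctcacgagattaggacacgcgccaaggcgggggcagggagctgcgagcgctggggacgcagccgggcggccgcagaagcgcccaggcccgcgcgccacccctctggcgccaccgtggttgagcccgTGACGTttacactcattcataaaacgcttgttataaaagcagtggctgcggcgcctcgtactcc
FOSL2: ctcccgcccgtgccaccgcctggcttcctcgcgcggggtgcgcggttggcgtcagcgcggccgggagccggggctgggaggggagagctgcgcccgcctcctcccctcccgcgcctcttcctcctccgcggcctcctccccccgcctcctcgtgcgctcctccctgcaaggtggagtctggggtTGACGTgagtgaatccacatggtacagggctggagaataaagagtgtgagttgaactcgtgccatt
FOSB: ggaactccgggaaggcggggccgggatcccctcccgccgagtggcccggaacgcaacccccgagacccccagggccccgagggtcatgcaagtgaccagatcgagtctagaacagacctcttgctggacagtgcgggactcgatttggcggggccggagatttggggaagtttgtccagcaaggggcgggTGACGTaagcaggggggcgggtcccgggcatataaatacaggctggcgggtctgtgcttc
The motif began 64 bases before the start in FOS, 66 in FOSL2 and 60 in FOSB. Read on both strands, TGACGT was in 7.10% of the 35116 RefSeq windows of this length. The AP-1 site TGACTCA, in 4.20% of the windows, was in none of the 9 windows found for 8 of the 10 genes, of which ATF3 has 2. FOSL1 and BATF3 had no entry. A match is a description, and a missing match says only that these letters are not in this window.

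The Fos mRNAs also differ in their 3′ UTRs. Short sites are shown because Roquin2 and AU-rich element proteins bind sites in the 3′ UTRs of some mRNAs. Binding to the Fos mRNAs was not tested. In the GENCODE v29 transcripts, FOS held 5 ATTTA pentamers in 806 bases (6.20 per kilobase), and FOSL2 held 9 in 4864 bases (1.85 per kilobase), where the median of 10708 genes was 1.74 per kilobase. FOS and FOSL2 were the only members with the AU-rich nonamer TTATTTATT, which 8.86% of those genes hold. It is in capitals in these lines.
FOS: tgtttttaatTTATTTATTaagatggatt
FOSL2: atttattttaTTATTTATTttaaatgttt
A further site of FOS reads as a stem of 6 Watson-Crick pairs around a loop of 3 bases, within the pattern TTCNNNGAA, with stem and loop in capitals.
FOS: ttaacaGTTTTCCATGAAAACgtttta
Such a stem of at least 6 pairs was in 1.96% of the genes and in no other member, while FOSL2, FOSB and ATF3 had stems of 4 pairs at this pattern, which 16.1% of the genes have at that length or longer. These matches describe letters, not bound sites.

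JUN encodes c-Jun, the founding Jun protein and a strong activator. It lies on chromosome 1 from 58780788 to 58784327 on the minus strand (ENSG00000177606) and has no intron. It had 3.61, 4.02 and 3.99 CPM in Y691F with IgM, 8.37, 8.85 and 9.36 CPM in WT with IgM, 1.88, 2.48 and 1.86 CPM in Y691F untreated and 1.64, 1.60 and 1.38 CPM in WT untreated. Y691F libraries lay below all WT libraries with IgM and above all WT libraries without it. IgM raised JUN by 0.90 on the log2 scale in Y691F (SE 0.16, 1.87-fold, adjusted p = 9.40e-07) and by 2.51 in WT (SE 0.15, 5.70-fold, adjusted p = 1.42e-27).

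JUNB and JUND, the Jun genes with the more abundant mRNAs here, encode weaker activators than c-Jun in many settings. JUND is known for steady expression in resting cells. JUNB lies on chromosome 19 from 12791496 to 12793315 on the plus strand (ENSG00000171223). It had 271, 248 and 252 CPM in Y691F with IgM, 315, 316 and 321 CPM in WT with IgM, 59.2, 63.7 and 53.6 CPM in Y691F untreated and 49.8, 52.9 and 51.9 CPM in WT untreated. The 4 groups did not overlap. IgM raised JUNB by 2.13 in Y691F (SE 0.04, adjusted p = 7.26e-58) and by 2.62 in WT (SE 0.04, adjusted p = 1.17e-63) on the log2 scale. JUNB lies wholly within the span of HOOK2 on the opposite strand, which had 116 to 248 counts per library against 905 to 5856 for JUNB, and which was lower with IgM in both kinds of cell, by 0.52 in Y691F (log2 -0.52) and 0.48 in WT (log2 -0.48).

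JUND lies on chromosome 19 from 18279760 to 18281622 on the minus strand (ENSG00000130522). It had 501, 485 and 451 CPM in Y691F with IgM, 448, 437 and 457 CPM in WT with IgM, 119, 127 and 106 CPM in Y691F untreated and 90.8, 80.6 and 86.7 CPM in WT untreated. The IgM groups overlapped and the untreated groups did not. The response to IgM was 2.03 in Y691F (SE 0.06, adjusted p = 2.65e-13) and 2.38 in WT (SE 0.06, adjusted p = 6.57e-14) on the log2 scale.

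The windows before the RefSeq starts of JUN and JUND are printed because these genes also rose with IgM and hold related motifs. The coordinates are chr1:58784048-58784297 for JUN and chr19:18281623-18281872 for JUND, both on the minus strand. The JUN window lies wholly inside the gene span given above, which begins upstream of the RefSeq start. The capitals in JUN mark TGACATCA, a variant of the CREB/ATF site, which 2.37% of all windows hold. Those in JUND mark the full site TGACGTCA, which 1.65% hold, and the core on the reverse strand.
JUN: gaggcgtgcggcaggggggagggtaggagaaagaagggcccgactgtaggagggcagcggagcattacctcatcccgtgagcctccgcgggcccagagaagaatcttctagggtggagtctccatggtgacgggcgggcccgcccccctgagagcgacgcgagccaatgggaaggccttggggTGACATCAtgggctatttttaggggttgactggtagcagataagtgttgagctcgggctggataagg
JUND: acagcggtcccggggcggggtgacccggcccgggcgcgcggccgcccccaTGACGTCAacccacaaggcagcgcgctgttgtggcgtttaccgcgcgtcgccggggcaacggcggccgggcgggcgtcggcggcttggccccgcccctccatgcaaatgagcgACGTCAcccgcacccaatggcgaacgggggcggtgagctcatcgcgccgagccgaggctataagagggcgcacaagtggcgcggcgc
The site began 67 bases before the start in JUN. In JUND the full site began 200 bases before the start and the reverse core 87 bases before it. The full site contains the core TGACGT on both strands. The JUNB and BATF windows, and the window before the downstream start of ATF3, held none of the 4 motifs.

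BATF is a zipper protein needed in B cells for class switching in mice. It lies on chromosome 14 from 75522425 to 75547015 on the plus strand (ENSG00000156127). It had 22.2, 23.2 and 23.9 CPM in Y691F with IgM, 41.1, 36.1 and 42.7 CPM in WT with IgM, 19.9, 23.8 and 21.7 CPM in Y691F untreated and 32.3, 32.5 and 32.2 CPM in WT untreated. Y691F libraries lay below WT libraries in both conditions. IgM raised BATF in WT cells by 0.30 on the log2 scale (SE 0.06, adjusted p = 2.60e-06). In Y691F cells the change of 0.09 was not called (95% interval -0.05 to 0.22, adjusted p = 0.234), and with library totals it was -0.08. BATF therefore had the smallest response of the 10 in both kinds of cell. Its 3′ UTR was the only member's without an ATTTA pentamer, and at 344 bases it was the shortest of the 10. Of 10708 genes, 72.8% hold the pentamer, with a median 3′ UTR of 1172.5 bases. A link between the pentamer and the response was not tested.

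ATF3 lies on chromosome 1 from 212565334 to 212620777 on the plus strand (ENSG00000162772). It had 7.83, 9.48 and 8.10 CPM in Y691F with IgM, 13.0, 15.8 and 15.9 CPM in WT with IgM, 2.57, 3.05 and 2.21 CPM in Y691F untreated and 4.50, 3.29 and 4.18 CPM in WT untreated. As for BATF, Y691F libraries lay below WT libraries in both conditions. IgM raised ATF3 by 1.70 in Y691F (SE 0.14, adjusted p = 5.39e-20) and by 1.91 in WT (SE 0.11, adjusted p = 8.22e-28) on the log2 scale. The window before its downstream start held none of the motifs, and which start these cells used was not tested. The window before its upstream start, chr1:212565157-212565406 on the plus strand, is shown because it holds the same TGACATCA as JUN, here 123 bases before the start. This window reaches into the gene span given above, which begins upstream of the RefSeq start.
ATF3: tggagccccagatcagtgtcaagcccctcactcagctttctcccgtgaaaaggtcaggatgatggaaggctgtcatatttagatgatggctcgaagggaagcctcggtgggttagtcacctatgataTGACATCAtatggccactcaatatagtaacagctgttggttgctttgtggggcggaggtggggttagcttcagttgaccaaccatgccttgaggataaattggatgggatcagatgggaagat

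BATF3, known for its role in dendritic cells in mice, was near the limit of detection. It lies on chromosome 1 from 212686418 to 212699985 on the minus strand (ENSG00000123685). It had 15, 11 and 8 counts in Y691F with IgM, 9, 7 and 14 counts in WT with IgM, 9, 7 and 8 counts in Y691F untreated and 2, 7 and 5 counts in WT untreated. It passed the filter through 3 IgM libraries alone. The IgM response was 1.28 on the log2 scale in WT (SE 0.46, adjusted p = 0.00992), or 2.47-fold by counts (1.27 to 5.05), and the call was lost without WT untreated replicate 1 (adjusted p = 0.0733) or WT IgM replicate 3 (adjusted p = 0.125). In Y691F it was 0.71 (SE 0.40, adjusted p = 0.0989) and not called, at 1.65-fold by counts (0.948 to 2.90).

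**Figure D2:**
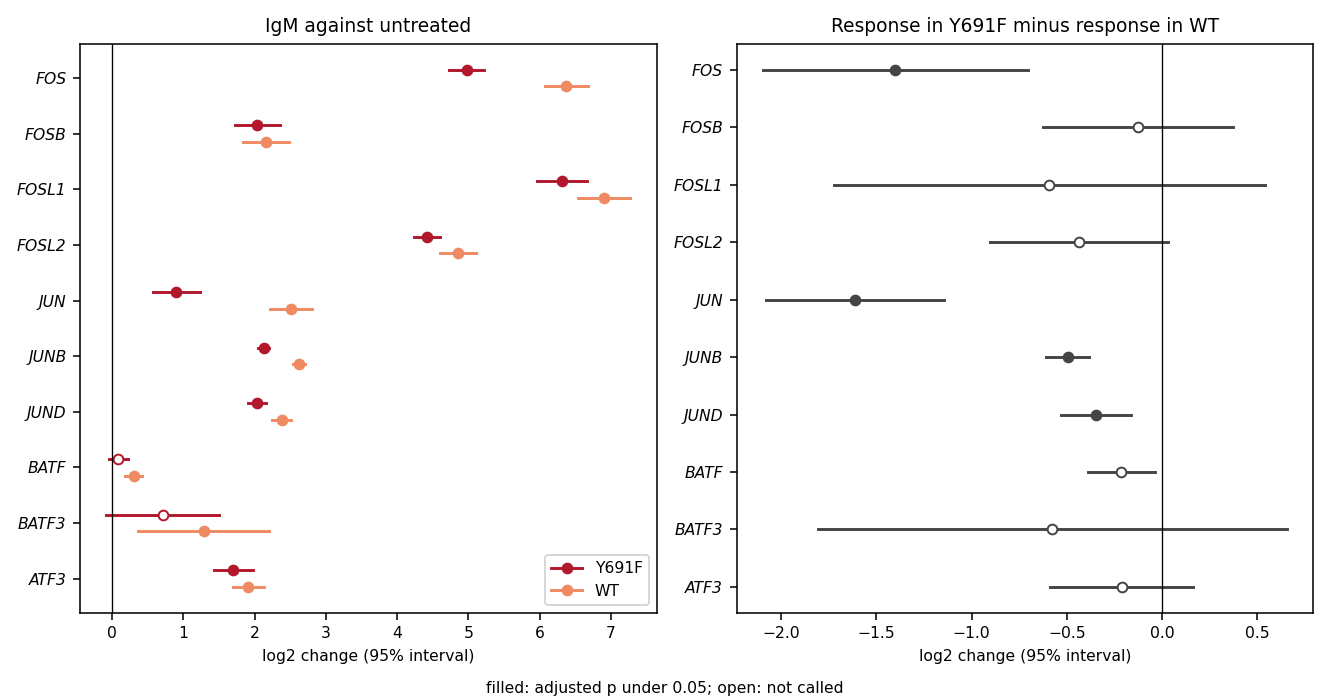
Log2 change with IgM against untreated in Y691F and WT cells (left), and the difference between both responses, Y691F minus WT (right), with 95% intervals and filled points for adjusted p under 0.05. FOS, JUN, JUNB and JUND have filled points below 0 on the right.

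With IgM, Y691F cells had more FOSL2 and less JUN, BATF, ATF3 and JUNB mRNA than WT cells. Of the 10 genes 6 differed, 1 higher and 5 lower, where 42.1% of all tested genes differed, 21.9% higher and 20.2% lower. Counts over 10 genes are read only against these shares. FOSL2 was 1.94-fold higher in Y691F (log2 0.96, SE 0.06, adjusted p = 6.08e-24). JUN was lower by 1.19 on the log2 scale (log2 -1.19, SE 0.12, adjusted p = 1.16e-13), a level 2.29-fold higher in WT, and 99.0% of the tested genes had a higher log2 change. BATF (log2 -0.79, SE 0.06, adjusted p = 2.50e-19) and ATF3 (log2 -0.81, SE 0.10, adjusted p = 2.77e-11) were lower by a similar amount. JUNB was lower by less, at a mean of 257 ± 12.0 CPM in Y691F with IgM and 317 ± 3.26 CPM in WT with IgM (SD, n = 3 each, log2 -0.31, SE 0.03, adjusted p = 1.71e-12).

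FOSL1 was called lower at the edge of the threshold (log2 -0.17, SE 0.07, adjusted p = 0.0488), and 10 of 20 alternative settings lost the call, with adjusted p between 0.0239 and 0.286. JUND was not called (log2 0.10, 95% interval -0.01 to 0.21, adjusted p = 0.154), but 6 of 20 alternatives called it higher. For FOS the log2 difference was 0.02 with a 95% interval of -0.11 to 0.14, for FOSB -0.09 with -0.33 to 0.16, and for BATF3 0.14 with -0.62 to 0.89, and none of them was called. The interval of BATF3 is the widest of these because it rests on 7 to 15 counts per library.

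Untreated Y691F cells had more FOS, FOSL2, JUND and JUNB and less BATF and ATF3 mRNA than untreated WT cells. Of the 10 genes 6 differed, 4 higher and 2 lower, where 31.2% of all tested genes differed, 15.1% higher and 16.1% lower. FOS was 2.67-fold higher in Y691F (log2 1.42, SE 0.34, adjusted p = 5.84e-04) and FOSL2 2.63-fold (log2 1.39, SE 0.22, adjusted p = 2.00e-07), at ranks 163 (FOS) and 170 (FOSL2) of the 15112 genes counted from the highest signed log2 change. JUND (log2 0.45, SE 0.07, adjusted p = 1.27e-04) and JUNB (log2 0.19, SE 0.05, adjusted p = 6.34e-04) were higher by less. BATF (log2 -0.57, SE 0.06, adjusted p = 7.10e-13) and ATF3 (log2 -0.60, SE 0.16, adjusted p = 0.00165) were lower. JUN had a log2 difference of 0.42 (95% interval 0.02 to 0.81) whose groups did not overlap, and it was not called after adjustment (adjusted p = 0.103). FOSL1 (log2 0.42, adjusted p = 0.632), BATF3 (log2 0.71, adjusted p = 0.290) and FOSB (log2 0.04, adjusted p = 0.918) were not called.

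**Figure D3:**
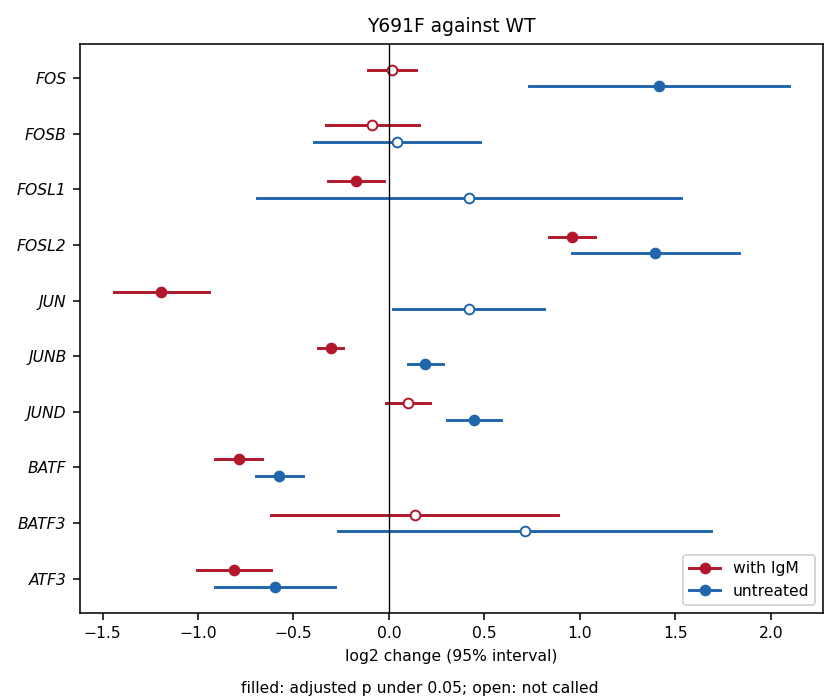
Log2 difference of Y691F against WT for each gene, with IgM (red) and untreated (blue), with 95% intervals and filled points for adjusted p under 0.05. FOSL2 is above 0 and BATF and ATF3 below 0 in both conditions, and JUNB has filled points on opposite sides of 0.

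The test of the difference between both IgM responses asks whether IgM moved a gene by another amount in Y691F than in WT cells. Of the 10 genes 4 had a smaller rise in Y691F and none a larger one, where 11% of all tested genes were called lower and 14.7% higher in this test. All 10 differences were below 0 on the log2 scale, as were 48.9% of all tested genes, and the difference of FOSB was 0.0148 without WT IgM replicate 1. At an unadjusted p under 0.05, 5 of the 10 were lower and 0 higher, where 15.9% of all tested genes were lower and 19.3% higher, and no alternative, with DESeq2 and limma-voom among them, called a member higher. With library totals, 1847 of all tested genes were called higher and 2132 lower in it, against 2217 and 1667 with TMM. The difference was -1.61 on the log2 scale for JUN (SE 0.24, adjusted p = 3.34e-08), -1.40 for FOS (SE 0.35, adjusted p = 0.00109), -0.49 for JUNB (SE 0.06, adjusted p = 3.11e-11) and -0.35 for JUND (SE 0.08, adjusted p = 0.00781). These numbers share their libraries with the comparisons above. For FOS and JUND, Y691F and WT libraries overlapped with IgM and did not overlap untreated. For JUN and JUNB, Y691F libraries lay below all WT libraries with IgM and above all of them untreated. BATF (log2 -0.21, adjusted p = 0.0650) was not called, and 4 of 19 alternatives called it lower. FOSL2 (log2 -0.44, adjusted p = 0.172), FOSL1 (log2 -0.59, adjusted p = 0.509), FOSB (log2 -0.13, adjusted p = 0.775), BATF3 (log2 -0.58, adjusted p = 0.555) and ATF3 (log2 -0.21, adjusted p = 0.458) were not called either.

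The make-up of the Fos and Jun mRNA pools follows from these levels and is given as a description, as shares of summed RPKM. The Fos genes summed to 21.5 RPKM in Y691F with IgM, 19.7 in WT with IgM, 0.894 in Y691F untreated and 0.519 in WT untreated. FOSL2 made up 27.5% ± 1.75 of this sum in Y691F with IgM and 15.6% ± 0.826 in WT with IgM, and 34.0% ± 1.24 in Y691F untreated and 22.3% ± 2.78 in WT untreated (SD, n = 3 each). FOSL1 made up 35.9% ± 1.68 in Y691F with IgM and 44.4% ± 2.44 in WT with IgM. FOSB, the largest part in untreated WT cells at 45.9% ± 6.68, made up 27.4% ± 2.68 in untreated Y691F cells and under 5% in both groups with IgM. The ratio of FOSL2 to FOS was 0.854 ± 0.103 in Y691F with IgM and 0.445 ± 0.0137 in WT with IgM.

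The Jun genes summed to 310 RPKM in Y691F with IgM, 324 in WT with IgM, 81.7 in Y691F untreated and 63.9 in WT untreated. JUND made up 64.4% ± 1.01 in Y691F with IgM and 57.6% ± 0.375 in WT with IgM, and JUNB made up 35.3% ± 1.01 in Y691F with IgM and 41.8% ± 0.369 in WT with IgM. JUN was a trace in every group, at 0.275% ± 0.0274 in Y691F with IgM, 0.600% ± 0.0282 in WT with IgM, 0.611% ± 0.0632 in Y691F untreated and 0.581% ± 0.0572 in WT untreated. Its share was lowest in Y691F cells with IgM, where no library overlapped with the other 3 groups. The ratio of ATF3 to BATF was 0.0889 ± 0.00901 in Y691F with IgM and 0.0909 ± 0.0145 in WT with IgM, which differ by less than the spread between libraries.

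**Figure D4:**
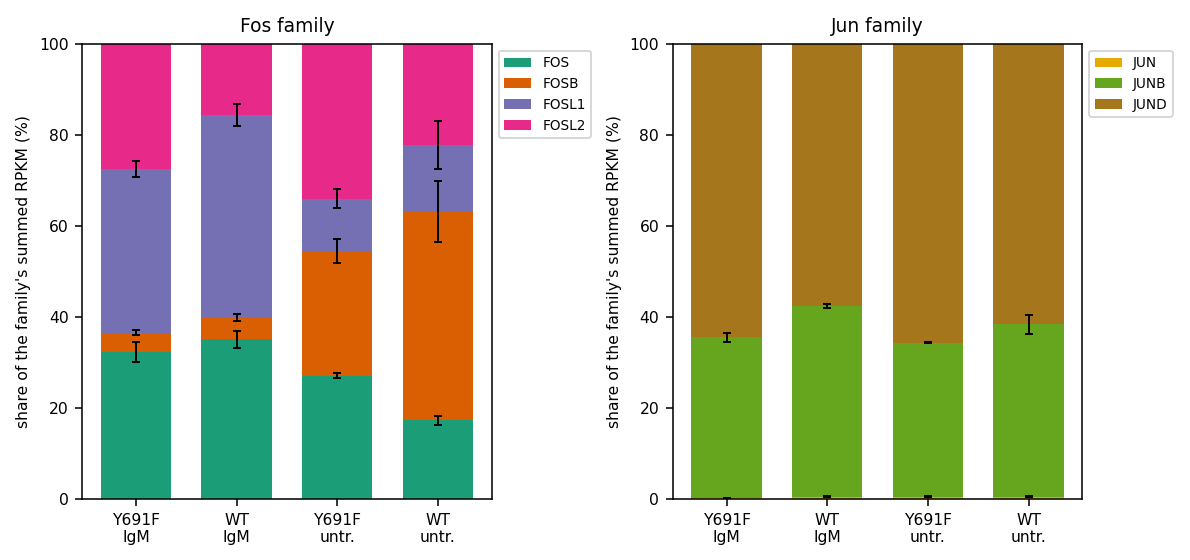
Share of each gene in the summed RPKM of the Fos family (left) and the Jun family (right), as group means of 3 libraries, where an error bar at the top of a segment is the SD of that gene's share. FOSL2 takes 27.5% of the Fos sum in Y691F with IgM and 15.6% in WT with IgM.

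Across the 12 libraries the members fell into sets of like pattern, by the root mean square distance between log2 CPM profiles centred on their own means. JUNB and JUND were the closest pair at 0.20 on the log2 scale, followed by FOSB with JUND at 0.23 and FOSB with JUNB at 0.25. FOS was nearest to FOSL1 among the members, at 0.49. Among 11218 genes of at least 1 CPM, the nearest to FOS were SNX9 at 0.22, TRPM4 at 0.39 and EGR1 at 0.42. Nearest to JUN were TFEC and TNFAIP3 at 0.21 and WDFY1 at 0.22. Nearest to JUNB were IRS2 at 0.10, ID3 at 0.12 and ZFP36L1 at 0.13, and nearest to JUND were OAS1 at 0.05, ARID5B at 0.07 and CLEC2D at 0.12. The libraries of a group share their treatment and form, so this likeness is mainly that of 4 group means.

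Most of the other zipper proteins related to AP-1 also rose with IgM. Of 27 listed genes 23 were tested. With IgM 19 rose and 2 fell in Y691F (median log2 0.64, all tested genes -0.0107), against 37.1% and 38.7% of all tested genes. In WT 17 rose and 2 fell (median log2 0.53, all tested genes 0.0016), against 38.4% and 38.5%. CREB5, among those that rose, had at most 0.344 CPM in any untreated library, so the filter on low counts favours its rise. DDIT3, which encodes the stress factor CHOP, rose by 3.75 in Y691F (adjusted p = 1.78e-69) and by 3.87 in WT (adjusted p = 4.97e-77) on the log2 scale. Between the forms the list split. With IgM, 8 were higher and 10 lower in Y691F (median log2 -0.04, all tested genes -0.00494), against 21.9% and 20.2%. Untreated, 3 were higher and 11 lower (median log2 -0.11, all tested genes -0.00779), against 15.1% and 16.1%. DDIT3 was at 115 ± 5.96 CPM in Y691F with IgM and 246 ± 10.6 CPM in WT with IgM (log2 -1.09, adjusted p = 1.43e-43). CREM, which encodes a cyclic AMP response factor, was at 119 ± 4.08 CPM in Y691F with IgM and 71.8 ± 3.09 CPM in WT with IgM (log2 0.73, adjusted p = 8.29e-29), and its IgM response was larger in Y691F by 0.92 (adjusted p = 7.14e-25).

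The factors that bind beside AP-1 or BATF at composite sites were mostly higher in Y691F cells with IgM. All 15 listed genes were tested, and 11 stood higher and 1 lower than in WT with IgM (median log2 0.34, all tested genes -0.00494), against 21.9% and 20.2% of all tested genes. Untreated, 8 were higher and 4 lower (median log2 0.13, all tested genes -0.00779), against 15.1% and 16.1%. IRF1, an interferon-responsive factor, was at 79.8 ± 2.63 CPM in Y691F with IgM and 33.1 ± 1.55 CPM in WT with IgM (log2 1.27, adjusted p = 7.22e-39), and RUNX3 was at 599 ± 9.56 CPM in Y691F with IgM and 383 ± 16.2 CPM in WT with IgM (log2 0.65, adjusted p = 3.61e-34). IRF4, the partner of BATF in lymphocytes, was at 847 ± 10.0 CPM in Y691F with IgM and 849 ± 7.22 CPM in WT with IgM, against 568 ± 10.1 CPM in Y691F untreated and 400 ± 4.72 CPM in WT untreated. It was thus higher in untreated Y691F cells (log2 0.51, adjusted p = 1.26e-28). In the difference of responses 9 of the 15 genes were called higher and 2 lower (median log2 0.32, all tested genes 0.0069), against 14.7% and 11% of all tested genes. IRF1 (1.07, adjusted p = 8.14e-22) and RUNX3 (0.81, adjusted p = 3.62e-28) had larger responses in Y691F, and IRF4 had a smaller one (-0.51, adjusted p = 4.66e-20). IRF8, also on the list, fell with IgM by less in Y691F (log2 -0.28) than in WT (log2 -0.76). The difference was 0.48 (adjusted p = 1.01e-15), and with IgM IRF8 was higher in Y691F than in WT (log2 0.34, adjusted p = 1.56e-15).

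All 28 listed genes of the MAP kinase route and of serum response factor were tested. With IgM, 6 were higher and 6 lower in Y691F (median log2 -0.03, all tested genes -0.00494), shares close to the 21.9% and 20.2% of all tested genes. Untreated, 3 were higher and 10 lower (median log2 -0.05, all tested genes -0.00779), where 15.1% and 16.1% of all tested genes were. RASGRP3, a Ras activator downstream of the B cell receptor, was at 96.9 ± 2.32 CPM in Y691F with IgM and 167 ± 4.08 CPM in WT with IgM (log2 -0.78, adjusted p = 2.90e-34), and at 160 ± 5.61 CPM in Y691F untreated and 265 ± 2.64 CPM in WT untreated (log2 -0.73, adjusted p = 2.86e-35). MAP3K1, a kinase of the JNK route, was lower in Y691F with IgM (log2 -0.43, adjusted p = 1.53e-12) and untreated (log2 -0.42, adjusted p = 6.54e-13). The difference of its responses was -0.01 (adjusted p = 0.918). MEF2C, also on the list, was higher in Y691F with IgM (log2 0.39, adjusted p = 2.91e-17) and untreated (log2 0.27, adjusted p = 2.04e-10). Whether any of these genes bears on JUN was not tested. With IgM against untreated, 14 rose and 8 fell in Y691F (median log2 0.13, all tested genes -0.0107) and 13 rose and 9 fell in WT (median log2 0.09, all tested genes 0.0016), where 37.1% to 38.7% of all tested genes went each way in Y691F and 38.4% to 38.5% in WT. MAP2K3, which activates p38 kinases, rose by 2.51 in Y691F cells and by 2.59 in WT cells on the log2 scale. In the difference of responses 6 of the 28 genes were called higher and 1 lower, against 14.7% and 11% of all tested genes. The median log2 was 0.0068 there, and 0.0069 for all tested genes.

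Among 15 genes that limit AP-1 proteins or their mRNAs, the comparison with IgM called 6 higher and 5 lower in Y691F cells (median log2 0.01, all tested genes -0.00494), against 21.9% and 20.2% of all tested genes. Untreated, 4 were higher and 3 lower (median log2 0.02, all tested genes -0.00779), against 15.1% and 16.1%. In the difference of responses 4 were called higher and 1 lower, against 14.7% and 11% (median log2 0.06, all tested genes 0.0069). TRIB1, a pseudokinase adaptor of the COP1 ubiquitin ligase, was at 117 ± 2.90 CPM in Y691F with IgM and 37.3 ± 2.38 CPM in WT with IgM (log2 1.66, adjusted p = 7.83e-49), and was also higher untreated (log2 1.04, adjusted p = 6.50e-21). Its IgM response was larger in Y691F by 0.62 (adjusted p = 4.75e-08). The AU-rich element decay factor ZFP36L2 was higher in Y691F by 0.57 with IgM (adjusted p = 5.71e-25) and 0.33 untreated (adjusted p = 2.40e-14), and the difference of its responses was 0.24 (adjusted p = 5.48e-05). Its paralog ZFP36L1 rose with IgM by 2.30 in Y691F and 2.77 in WT on the log2 scale, and is the gene called lower in the difference of responses (-0.47, adjusted p = 1.47e-13). RFWD2, which encodes COP1, was not called between the forms (log2 0.07 with IgM and -0.04 untreated).

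Of 25 reported targets of AP-1 or BATF, 15 were tested. In Y691F against WT with IgM, 7 were higher and 4 lower (median log2 0.10, all tested genes -0.00494), against 21.9% and 20.2% of all tested genes. Untreated, 9 were higher and 1 lower (median log2 0.41, all tested genes -0.00779), against 15.1% and 16.1%. With IgM against untreated, 10 rose and 4 fell in Y691F (median log2 0.91, all tested genes -0.0107), against 37.1% and 38.7%. In WT 12 rose and 3 fell (median log2 1.55, all tested genes 0.0016), against 38.4% and 38.5%. In the difference of responses 3 were called higher and 6 lower (median log2 -0.45, all tested genes 0.0069), against 14.7% and 11%. CD274, which encodes PD-L1, was at 8.20 ± 0.906 CPM in Y691F with IgM, 33.5 ± 1.58 CPM in WT with IgM, 1.38 ± 0.152 CPM in Y691F untreated and 2.12 ± 0.160 CPM in WT untreated. It was lower in Y691F with IgM (log2 -2.02, adjusted p = 2.69e-38) and its IgM response was smaller there (difference -1.41, adjusted p = 3.86e-07). PRDM1, the plasma cell regulator Blimp-1, was higher in Y691F with IgM, at 128 ± 4.83 CPM against 67.9 ± 4.39 CPM in WT with IgM (log2 0.92, adjusted p = 2.90e-34), and its IgM response was larger there (difference 0.26, adjusted p = 0.0312).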

How the data were processed

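PolyA+ RNA was sequenced with strand information kept by dUTP, per the labels' protocols. For every gene and library the authors deposited a read count, which was a whole number in each case, and an RPKM value. These deposited RPKM values served only for levels per unit length and for shares. STAR 2.5.0b, DESeq2 and GRCh38 are named in the submitters' processing notes, while the read counter, its strand setting and the gene lengths were not given in the sources used here.

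Genes passing filterByExpr (15112) were tested with the quasi-likelihood test of edgeR 4.0.16 (robust, TMM factors, R 4.3.3) over the 12 libraries together, with 4 group coefficients and no further term. Y691F was set against WT with IgM and untreated, IgM against untreated in each form, and both responses against each other. p is 2-sided, adjusted by Benjamini-Hochberg over all tested genes, and called under 0.05. SE is the log2 change over the square root of F. The total of 16465393 to 21478790 counts per library sets the precision. The chi-square per degree of freedom between replicate libraries was 1.40 to 2.37, above counting error in every pair.

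Members and gene lists were chosen with earlier results of these data known. All 10 members were named. From each list up to 4 genes with the smallest adjusted p in a comparison could be named, and RFWD2 was added because TRIB1 acts through it. For members called in the difference of responses, the 3 nearest genes of at least 1 CPM were named. Motifs were searched on both strands of the RefSeq windows and on the sense strand of the 3′ UTR of 1 GENCODE v29 transcript per gene.

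Alternatives were DESeq2 1.42.0 size factors, library totals only, no filter, a filter of 5 CPM in 3 libraries, the DESeq2 Wald test, limma 3.58.1 voom, the replicate number as a block, only the groups compared, and leaving out each library in turn.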

Additional observations from a re-analysis of the deposited data

Results flagged for a closer look

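The IgM response differed between Y691F and WT cells, by the test of the difference itself (edgeR quasi-likelihood, adjusted over all tested genes), for 4 of the 10 genes. The difference, Y691F minus WT on the log2 scale, was -1.40 for FOS (adjusted p = 0.00109), -1.61 for JUN (adjusted p = 3.34e-08), -0.49 for JUNB (adjusted p = 3.11e-11) and -0.35 for JUND (adjusted p = 0.00781). In this test 25.7% of all tested genes were called.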

How the results depend on the processing

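The counts of members called lay within 1.5 times the reported count under every alternative, at 5 to 7 for Y691F against WT with IgM, 6 untreated, 8 to 9 for IgM in Y691F, 9 to 10 for IgM in WT and 4 to 5 for the difference of responses. The counts over all genes did too. Changes of sign were seen only where no call was made. As log2 of Y691F against WT with IgM, leaving out a library gave -0.0268 (without WT replicate 2) and -0.0037 (without Y691F replicate 3) to 0.0856 for FOS, -0.166 to 0.0597 for FOSB and -0.12 to 0.52 for BATF3. FOSB ran from -0.0874 to 0.12 untreated and from -0.21 to 0.0148 in the difference of responses. BATF with IgM against untreated in Y691F was -0.0821 with library totals. With library totals 9 of 40 group levels moved by more than 1 SD, by at most 6.13%. The replicate numbers did not pair the libraries: correlations of same-numbered libraries ran from -0.13 to 0.17, 5 of 12 libraries correlated best with their own number, and the replicate block gave 6366, 4737, 11452, 11622 and 3898 called genes, with 6, 6, 8, 10 and 4 members, in the order above. BATF3 had too few reads for the filter of 5 CPM, and levels per kilobase of counts were not run because no gene length was used. Low counts limit FOS, FOSL1 and BATF3 in untreated cells.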
